A study of Homo sapiens with 6 samples.

Results

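The genes described here are 8 parts of the defence against lipid peroxides, measured in HCT116, a human colorectal carcinoma cell line: GPX4, AIFM2, DHODH, GCH1, PRDX6, VKORC1L1, SEPHS2 and SECISBP2. They were chosen by symbol, from what their proteins are known to do, with earlier results of these data known. All 8 were found among the 61806 genes of the deposited table. HCT116 cells with the genotype label wildtype and a negative control siRNA (si-NC, 3 libraries) were compared with HCT116 cells with the label STRIP2 knockdown and an siRNA directed at STRIP2 (si-STRIP2, 3 libraries). The STRIP2 protein belongs to STRIPAK, an assembly of a phosphatase with kinases. RNA was measured by sequencing of poly(A)-selected, directional libraries. The labels number the libraries within each group and do not say whether they came from separate cultures, so the p-values measure the spread between these libraries, which may be technical. The labels do not give the siRNA sequences, their number or the time after transfection.

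Ferroptosis is a form of cell death in which phospholipids with polyunsaturated chains are peroxidised in an iron-dependent chain reaction. GPX4, a glutathione peroxidase, reduces phospholipid hydroperoxides inside membranes, and its catalytic residue is selenocysteine, which is inserted at a UGA codon by machinery that includes SEPHS2 and SECISBP2. Other enzymes act beside GPX4: AIFM2 (also called FSP1) and DHODH reduce coenzyme Q at the plasma membrane and in mitochondria, VKORC1L1 and AIFM2 reduce vitamin K, GCH1 opens the synthesis of the radical-trapping cofactor tetrahydrobiopterin, and PRDX6 is a peroxiredoxin that acts on phospholipid hydroperoxides and has been linked to the supply of selenium.

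SEPHS2 RNA fell to 51.0% of the control level, the largest change among the 8 genes. GCH1 fell to 75.3% of the control and SECISBP2 to 75.8%, and AIFM2 fell to 81.8%. PRDX6 rose to 139% and GPX4 to 111%. DHODH and VKORC1L1 did not pass the test. All 8 genes passed the filter on low counts, and 6 of the 8 were called at an adjusted p under 0.05 (edgeR quasi-likelihood test, Benjamini-Hochberg over 15687 genes tested), 2 of them higher and 4 lower in si-STRIP2. Over all genes tested, 54.8% were called, 27.8% higher and 27.0% lower; calls were thus frequent among all genes, and the count for these 8 is read against that share. The median log2 fold change of the 8 genes was -0.13, and that of all genes tested was 0.014. In absolute size, the medians were 0.35 for the 8 genes and 0.26 for all genes tested.

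**Figure D1:**
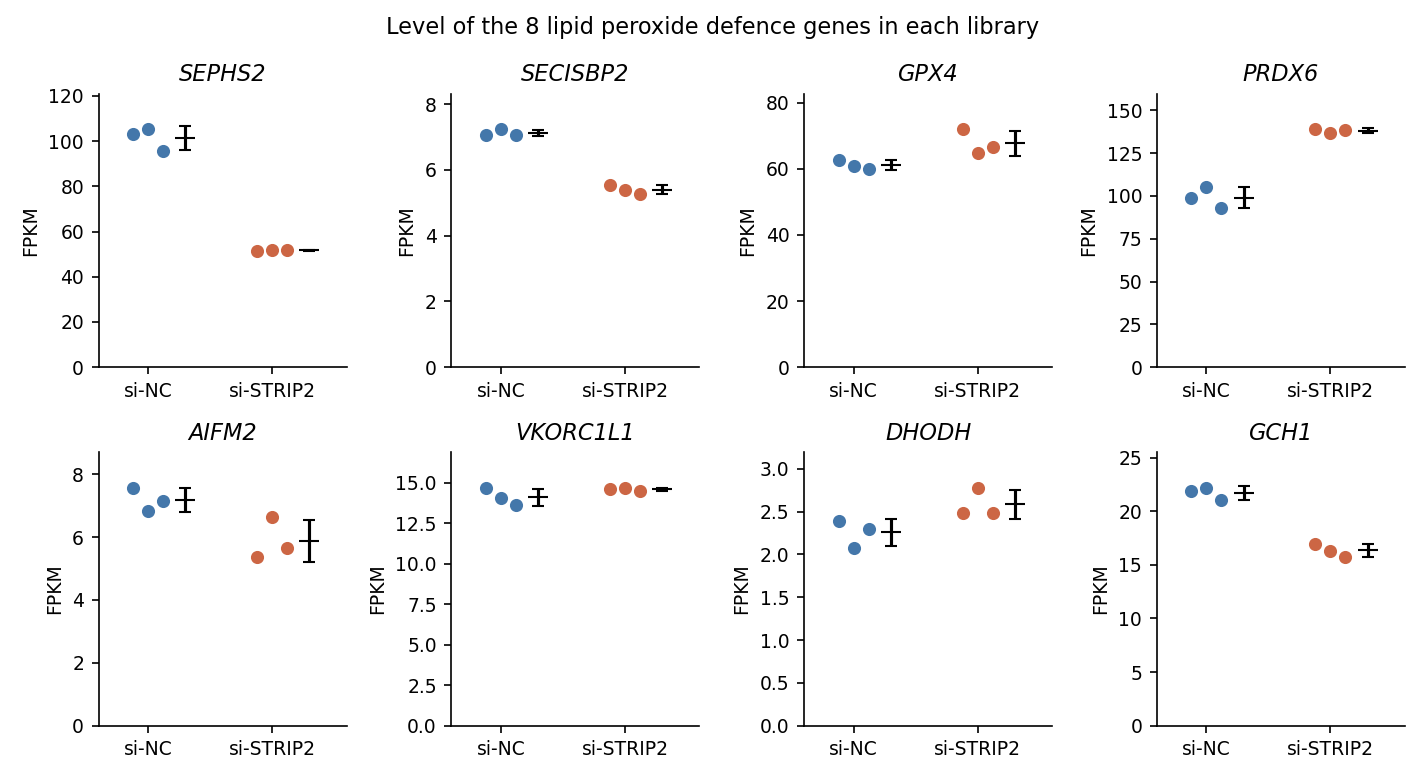
FPKM (fragments per kilobase of exon, scaled to the library's total count) of each gene in each library, with si-NC in blue and si-STRIP2 in orange. Points are libraries, and the bar beside them is the mean with its SD over 3 libraries. The SEPHS2 points of si-STRIP2 sit between 51.33 and 51.95, below the si-NC points at 95.58 to 105.27, while the VKORC1L1 points of both groups overlap.

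The libraries held 17184963 to 21721218 counts each, and mitochondrial genes took 4.88% to 8.88% of the counts in the control libraries and 5.73% to 6.30% after knockdown. STRIP2 itself, the targeted gene, was at 3.19, 3.77 and 3.81 FPKM in si-NC and at 2.71, 2.53 and 2.58 FPKM in si-STRIP2, so 72.6% of the control level remained (log2 fold change -0.46, SE 0.083, edgeR adjusted p = 1.62e-05). Of 8 markers of colorectal epithelium, 6 reached 1 FPKM in some library, EPCAM, KRT8 and KRT18 among them. CDX1 had no count and VIL1 at most 0.03 FPKM, so of these 2 defining markers CDX1 was not detected and VIL1 was near 0, with 10 counts over the 6 libraries. Markers of other cell types were near 0: the highest summed level of 4 leukocyte markers was 0.30 FPKM and that of 3 endothelial markers 0.10 FPKM. Of 5 fibroblast markers, COL1A1 alone reached 1 FPKM, at 1.89 to 2.55 FPKM, and COL1A2 had no count.

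SEPHS2 (ENSG00000179918, chromosome 16, 30443631 to 30445874, minus strand, GRCh38) encodes selenophosphate synthetase 2, which makes the activated selenium donor for selenocysteine and is itself a selenoprotein. Its coding sequence and that of GPX4 are shown around the codon that carries the selenocysteine, since both proteins depend on reading this codon as an amino acid and not as a stop. The capitals mark the in-frame TGA (UGA in the RNA), read from GENCODE 29 transcripts on GRCh38.
GPX4: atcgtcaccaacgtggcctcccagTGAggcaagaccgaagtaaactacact
SEPHS2: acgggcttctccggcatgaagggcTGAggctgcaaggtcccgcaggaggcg
In GPX4 the codon is number 73 of 197 in the coding sequence and lies in exon 3 of 7, at chr19:1105403-1105405. In SEPHS2 it is number 60 of 448, at chr16:30445548-30445550, and the transcript has 1 exon. GENCODE 29 annotates such a codon in 25 human genes, and all 25 were examined here, as these 2 genes or in the list of other selenoproteins.

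SEPHS2 was at 103.34, 105.27 and 95.58 FPKM in the si-NC libraries and at 51.33, 51.95 and 51.72 FPKM in the si-STRIP2 libraries. Every si-STRIP2 library was far below every si-NC library, and the 3 si-STRIP2 values lay closer together than the 3 si-NC values. PRDX6, VKORC1L1 and DHODH also had a smaller SD relative to the mean in si-STRIP2. GPX4, AIFM2, SECISBP2 and GCH1 had a larger one, for GPX4 5.58% against 2.36% and for GCH1 3.72% against 2.86%. Over whole libraries, the chi-square per degree of freedom between pairs was 2.14 to 2.27 within si-STRIP2 and 4.89 to 16.7 within si-NC. The counts behind this measure include mitochondrial genes, whose share in si-NC ran from 4.88% to 8.88%. These extremes were si-NC 2 and si-NC 3, the pair that gave 16.7. The mean went from 101 ± 5.13 to 51.7 ± 0.313 FPKM (SD, n = 3), a log2 fold change of -0.98 with an SE of 0.042 (edgeR adjusted p = 1.73e-19) and a 95% interval of the ratio from 0.479 to 0.540. Its counts ran from 1999 to 5037 per library, so counting error was at most 2.24% of a value. Of the 8599 called genes, 746 changed more than SEPHS2 in either direction and 478 fell more. In si-NC it was the highest of the 8 genes together with PRDX6, whose range overlapped its own, and in si-STRIP2 it was the third, below GPX4.

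SEPHS1, the paralog that carries no selenocysteine, did not follow. It was at 23.96, 24.04 and 21.89 FPKM in si-NC and at 22.95, 22.06 and 23.28 FPKM in si-STRIP2 (log2 fold change -0.038, edgeR adjusted p = 0.498). Within a library, SEPHS2 exceeded SEPHS1 by a ratio of 4.35 ± 0.0350 in the controls and 2.27 ± 0.0730 after knockdown (SD, n = 3), and the groups did not overlap. This pair was set side by side after its values were seen, and its ratio was not tested. The processed pseudogene SEPHS2P1 had 0 counts in all 6 libraries.

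**Figure D2:**
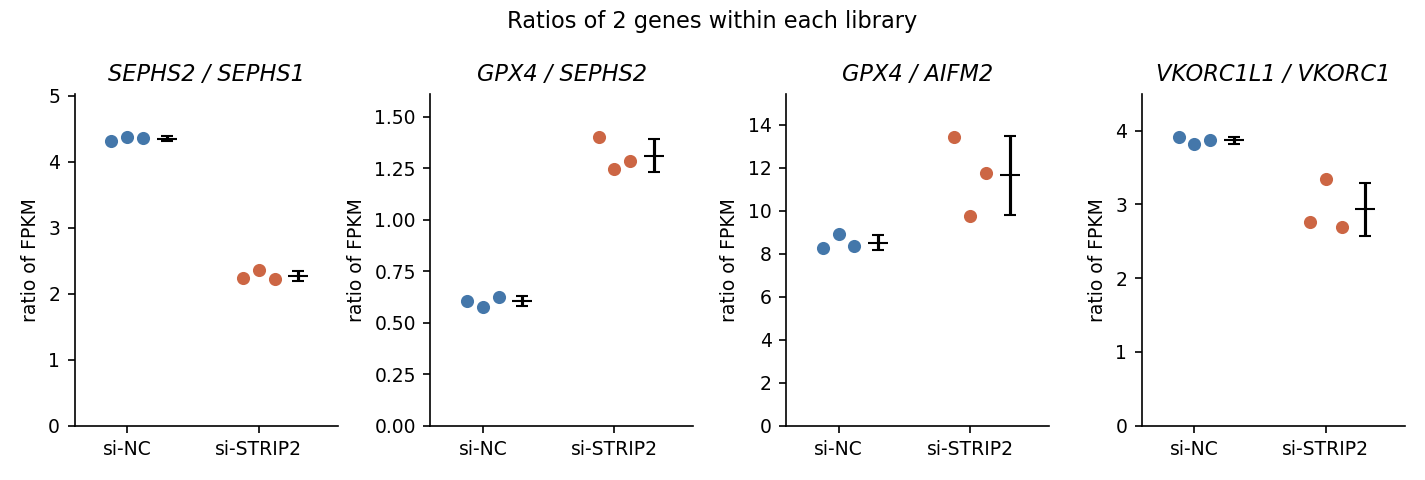
Ratio of the FPKM values of 2 genes within each library, for SEPHS2 to SEPHS1, GPX4 to SEPHS2, GPX4 to AIFM2 and VKORC1L1 to VKORC1. Points are libraries, and bars are the mean and SD over 3 libraries. The GPX4 to SEPHS2 ratio was under 1 in all si-NC libraries and over 1 in all si-STRIP2 libraries.

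SECISBP2 (ENSG00000187742, chromosome 9, 89318500 to 89359663, plus strand) encodes the protein that binds the selenocysteine insertion element of selenoprotein mRNAs. It was at 7.06, 7.24 and 7.07 FPKM in si-NC and at 5.55, 5.38 and 5.27 FPKM in si-STRIP2. The groups were well apart and each was narrow, with means of 7.12 ± 0.101 and 5.40 ± 0.141 FPKM (SD, n = 3). The log2 fold change was -0.40 with an SE of 0.046 (edgeR adjusted p = 5.02e-09). Its paralog SECISBP2L fell as well, from 8.49 ± 0.257 to 6.24 ± 0.312 FPKM (log2 fold change -0.45, SE 0.049, edgeR adjusted p = 1.67e-09). The ratio of SECISBP2 to SECISBP2L, 0.840 ± 0.0149 before and 0.868 ± 0.0672 after knockdown, overlapped between groups.

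GPX4 (ENSG00000167468, chromosome 19, 1103994 to 1106791, plus strand) was at 62.63, 60.85 and 59.77 FPKM in si-NC and at 71.95, 64.73 and 66.43 FPKM in si-STRIP2. The groups did not overlap, but the lowest si-STRIP2 library was 2.10 FPKM above the highest si-NC library, and the first si-STRIP2 library stood above the other two. The means were 61.1 ± 1.44 and 67.7 ± 3.77 FPKM (SD, n = 3). The log2 fold change was 0.14 with an SE of 0.043 (edgeR adjusted p = 0.00517), and the 95% interval of the ratio ran from 1.04 to 1.17. Without si-STRIP2 replicate 1 the call was lost, at a log2 fold change of 0.11 and an edgeR adjusted p of 0.0592. Of the called genes, 8088 changed more than GPX4. The ratio of GPX4 to SEPHS2 went from 0.603 ± 0.0238 to 1.31 ± 0.0811 (SD, n = 3), with no overlap between the groups, so the order of these 2 transcripts turned. The ratio was a description made after the values were seen.

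PRDX6 (ENSG00000117592, chromosome 1, 173477330 to 173488815, plus strand) had the largest rise among the 8 genes. It was at 99.01, 105.14 and 93.17 FPKM in si-NC and at 139.01, 136.55 and 138.76 FPKM in si-STRIP2, with every si-STRIP2 library above every si-NC library. The means were 99.1 ± 5.99 and 138 ± 1.35 FPKM (SD, n = 3), the log2 fold change was 0.48 and its SE 0.041 (edgeR adjusted p = 8.71e-12). Of the called genes, 1489 rose more. PRDX6 had the highest level of the 8 in si-STRIP2. The antisense gene PRDX6-AS1, which overlaps it, held 0.434% as many counts and was not called.

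AIFM2 (ENSG00000042286, chromosome 10, 70098223 to 70132934, minus strand) encodes FSP1, the oxidoreductase that regenerates reduced coenzyme Q and vitamin K. It was at 7.57, 6.82 and 7.14 FPKM in si-NC and at 5.35, 6.63 and 5.64 FPKM in si-STRIP2. The groups came close, since the second si-STRIP2 library was 0.19 FPKM below the lowest si-NC library, and the spread within si-STRIP2 was 11.4% of its mean. The means were 7.18 ± 0.376 and 5.87 ± 0.671 FPKM (SD, n = 3), the log2 fold change was -0.30 and its SE 0.070 (edgeR adjusted p = 0.000508). The span of AIFM2 overlaps that of MACROH2A2 on the other strand, a histone variant gene with 227% as many counts, over 14060 bases. In GENCODE 29 the exons of these 2 genes share 11 of the 5135 exonic bases of AIFM2 (0.214%), and MACROH2A2 itself was not called (log2 fold change -0.045, edgeR adjusted p = 0.427). Whether the counting used strand is not given in the sources used here.

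The si-STRIP2 library with the highest GPX4 level was also that with the lowest AIFM2 level. The ratio of GPX4 to AIFM2 was 8.27, 8.92 and 8.37 in the si-NC libraries and 13.4, 9.76 and 11.8 in the si-STRIP2 libraries. The log2 ratio was higher by 0.44 in si-STRIP2, in 3 of 3 libraries (exact permutation test, 2-sided, p = 0.1, the smallest p that 3 against 3 allows). The first si-STRIP2 library gave the highest ratio. Every si-STRIP2 library already had more GPX4 and less AIFM2 than every si-NC library. The ratio therefore had to separate the groups, and its p adds no support beyond the changes of the single genes.

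VKORC1L1 (ENSG00000196715, chromosome 7, 65873074 to 65959563, plus strand) encodes a vitamin K epoxide reductase that also reduces vitamin K to its radical-trapping form. It was at 14.65, 14.03 and 13.62 FPKM in si-NC and at 14.58, 14.69 and 14.49 FPKM in si-STRIP2, and the groups overlapped. The log2 fold change was 0.044 with an SE of 0.044 (edgeR adjusted p = 0.414), and its 95% interval ran from -0.046 to 0.13. The paralog VKORC1, the reductase of the classical vitamin K cycle, rose from 3.64 ± 0.118 to 5.02 ± 0.545 FPKM (log2 fold change 0.46, SE 0.107, edgeR adjusted p = 0.000487). VKORC1L1 stood at 3.87 ± 0.0475 times VKORC1 in the controls and at 2.93 ± 0.359 times after knockdown (SD, n = 3; not tested).

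DHODH (ENSG00000102967, chromosome 16, 72008588 to 72027664, plus strand), the mitochondrial enzyme of pyrimidine synthesis that passes electrons to coenzyme Q, had the lowest level of the 8 genes. It was at 2.39, 2.08 and 2.30 FPKM in si-NC and at 2.49, 2.78 and 2.49 FPKM in si-STRIP2. The si-STRIP2 values lay above the si-NC values with no overlap, by 0.10 FPKM at the closest. The log2 fold change was 0.19 with an SE of 0.085 (edgeR adjusted p = 0.0607), and the unadjusted 95% interval of the ratio ran from 1.01 to 1.28. With 249 to 360 counts per library, counting error alone was up to 6.34% of a value, close to the spread within the groups of 7.07% and 6.47%. Without si-NC replicate 1 the edgeR adjusted p was 0.0425. In all, 7 of the 8 genes had groups with separate ranges of FPKM, as had 58.6% of all genes tested.

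GCH1 (ENSG00000131979, chromosome 14, 54842008 to 54902826, minus strand) encodes GTP cyclohydrolase 1, the rate-limiting enzyme of tetrahydrobiopterin synthesis. It was at 21.91, 22.20 and 21.01 FPKM in si-NC and at 16.99, 16.27 and 15.78 FPKM in si-STRIP2, and the groups were well apart. The means were 21.7 ± 0.621 and 16.3 ± 0.609 FPKM (SD, n = 3), the log2 fold change was -0.41 and its SE 0.049 (edgeR adjusted p = 8.71e-09). The 3 genes that lie within its span held 0.0163% as many counts or none.

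**Figure D3:**
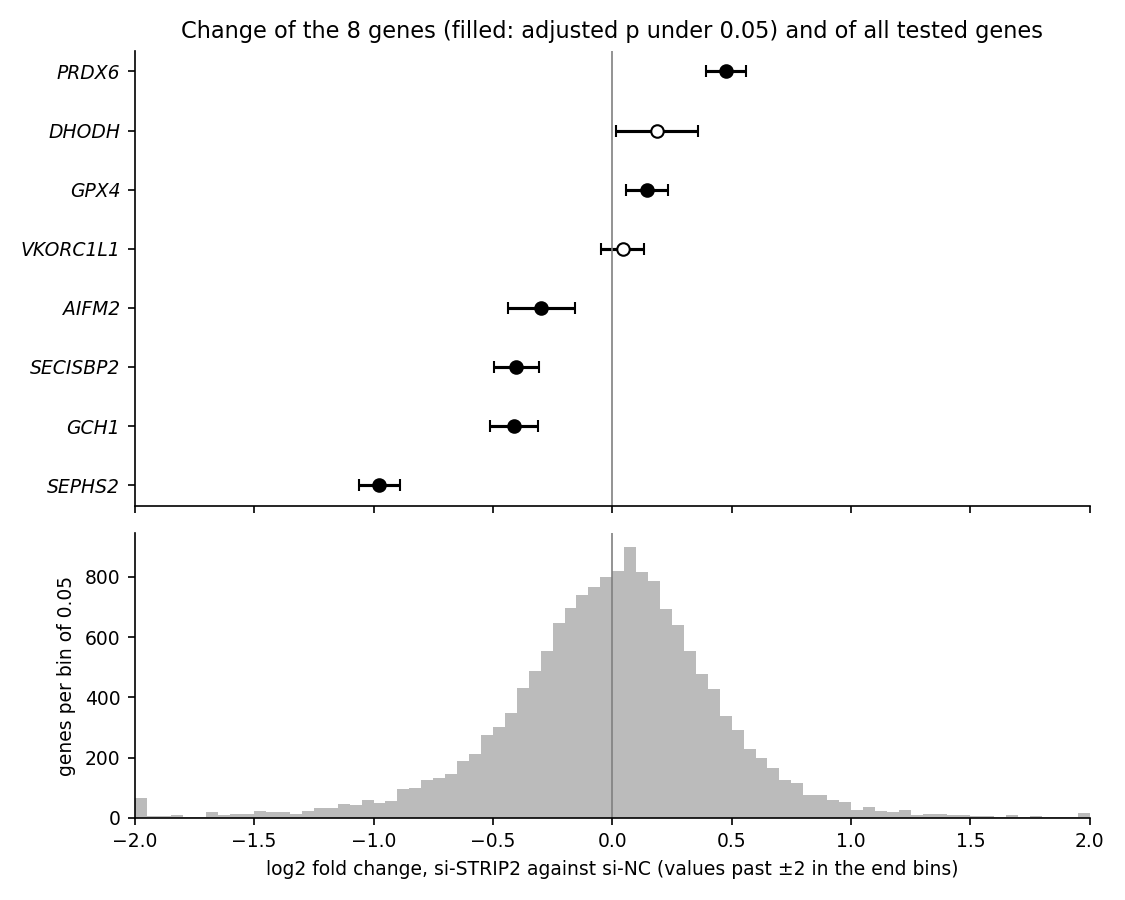
Upper panel: log2 fold change of each gene (si-STRIP2 against si-NC) with its 95% interval from the edgeR fit, filled where the adjusted p was under 0.05. Lower panel: number of tested genes per bin of 0.05, with values past 2 in either direction placed in the end bins. SEPHS2 at -0.98 lies in the lower tail of all genes, PRDX6 at 0.48 in the upper part, and GPX4 at 0.14 near the centre.

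The genes fell into levels that mostly kept their order. In si-NC the order was SEPHS2, PRDX6, GPX4, GCH1, VKORC1L1, AIFM2, SECISBP2 and DHODH, and the ranges of the neighbours SEPHS2 and PRDX6 and of AIFM2 and SECISBP2 overlapped. In si-STRIP2 PRDX6 and GPX4 stood above SEPHS2, and the order of the other genes was the same, with AIFM2 and SECISBP2 again overlapping. PRDX6, SEPHS2 and GPX4 had mean FPKM values above those of 98.4%, 97.3% and 96.7% of the tested genes, AIFM2 above 63.4% and DHODH above 40.8%.

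RefSeq promoter windows (GRCh38.p14, 250 bases before to 50 after the start) were found for 6 of the 8 genes. Those of SEPHS2, SECISBP2 and AIFM2, the genes among them that fell, are shown with the matches of 7 short motifs in capitals. The motifs were searched on both strands: AP-1 (TGANTCA), the antioxidant response element (TGACNNNGC), the cyclic AMP response element (TGACGTCA), the E-box (CACGTG), the ATF4 composite element (TGATGNAA), the NRF1 motif and the CCAAT box (CCAAT).
SEPHS2, chr16:30445825-30446124, minus strand: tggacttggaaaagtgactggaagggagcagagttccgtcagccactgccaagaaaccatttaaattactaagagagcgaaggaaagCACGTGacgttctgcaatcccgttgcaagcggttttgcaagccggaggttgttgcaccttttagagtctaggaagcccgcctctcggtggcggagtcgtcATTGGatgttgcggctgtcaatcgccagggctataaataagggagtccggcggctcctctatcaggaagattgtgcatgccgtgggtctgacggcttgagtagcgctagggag
SECISBP2, chr9:89318250-89318549, plus strand: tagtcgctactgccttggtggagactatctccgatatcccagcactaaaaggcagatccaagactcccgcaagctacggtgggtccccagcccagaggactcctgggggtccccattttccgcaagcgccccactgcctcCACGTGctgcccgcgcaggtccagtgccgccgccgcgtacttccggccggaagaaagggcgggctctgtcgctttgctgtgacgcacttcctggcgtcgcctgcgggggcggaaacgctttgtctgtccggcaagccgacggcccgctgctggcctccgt
AIFM2, chr10:70132776-70133075, minus strand: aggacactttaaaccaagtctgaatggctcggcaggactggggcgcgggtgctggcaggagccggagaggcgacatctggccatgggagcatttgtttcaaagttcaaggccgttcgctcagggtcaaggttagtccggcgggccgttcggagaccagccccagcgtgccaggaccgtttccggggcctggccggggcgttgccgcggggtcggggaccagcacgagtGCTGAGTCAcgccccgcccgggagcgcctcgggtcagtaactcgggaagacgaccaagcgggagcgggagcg
The E-box letters stood 163 bases before the start of SEPHS2, 110 before that of SECISBP2 and 159 before that of DHODH, which was not called and whose RefSeq start lies 156 bases from that of the deposited gene. They were in 3 of the 6 windows and in 7.20% of 34796 windows of the same length. The AIFM2 window, whose start lies 109 bases from that of the deposited gene, held the AP-1 letters TGAGTCA 20 bases before the start, within a match of the antioxidant response element (GCTGAGTCA). These motifs occurred in 7.73% and 13.3% of all windows. The antioxidant response element letters were also in the window of VKORC1L1, which was not called. CCAAT boxes were in the windows of SEPHS2, GPX4 and DHODH and in 34.6% of all windows. A match is a description of letters and was not tested against the changes.

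The genes around these 8 were read from 7 lists of 82 genes with known roles, of which 72 passed the filter on low counts. In all, 27 were called higher and 21 lower. These counts are read against the shares over all genes tested, 54.8% called, 27.8% higher and 27.0% lower. The share called was 75.0% in the 2 selenium lists, 72.7% in the pyrimidine list, 87.5% in the vitamin K list, 55.6% among the peroxidases and 50% in the coenzyme Q and tetrahydrobiopterin lists, so the last 3 lists were close to the share over all genes. Each list held only 6 to 16 tested genes, and no share was tested against that over all genes.

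In selenium supply and selenocysteine synthesis, 3 of 8 tested genes rose and 3 fell, with a median log2 fold change of -0.071 against 0.014 over all genes tested. PSTK, the kinase that phosphorylates the serine-charged selenocysteine tRNA, fell from 1.32 ± 0.195 to 0.840 ± 0.0954 FPKM (log2 fold change -0.66, SE 0.132, edgeR adjusted p = 7.58e-05), though IKZF5, which overlaps it, held 998% as many counts. LRP8, a receptor for selenoprotein P, fell by 0.23 on the log2 scale (edgeR adjusted p = 0.000236). SECISBP2L, given above, was the other named gene of this list.

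Among 23 other selenoproteins, 16 were tested, 5 rose and 7 fell, with a median of -0.059. SELENOP, the secreted carrier of selenium, was at 2.68, 2.26 and 2.47 FPKM in si-NC and at 0.82, 0.84 and 0.71 FPKM in si-STRIP2 (log2 fold change -1.65, SE 0.117, edgeR adjusted p = 5.78e-14). This was the largest change in the 7 lists and larger than that of any of the 8 genes. SELENOK, a selenoprotein of the endoplasmic reticulum, fell by 0.64 on the log2 scale (edgeR adjusted p = 1.44e-11), and SELENOI, an ethanolamine phosphotransferase, by 0.39 (edgeR adjusted p = 6.92e-10). The number that rose was 3 without si-NC replicate 2 or without si-STRIP2 replicate 2.

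**Figure D4:**
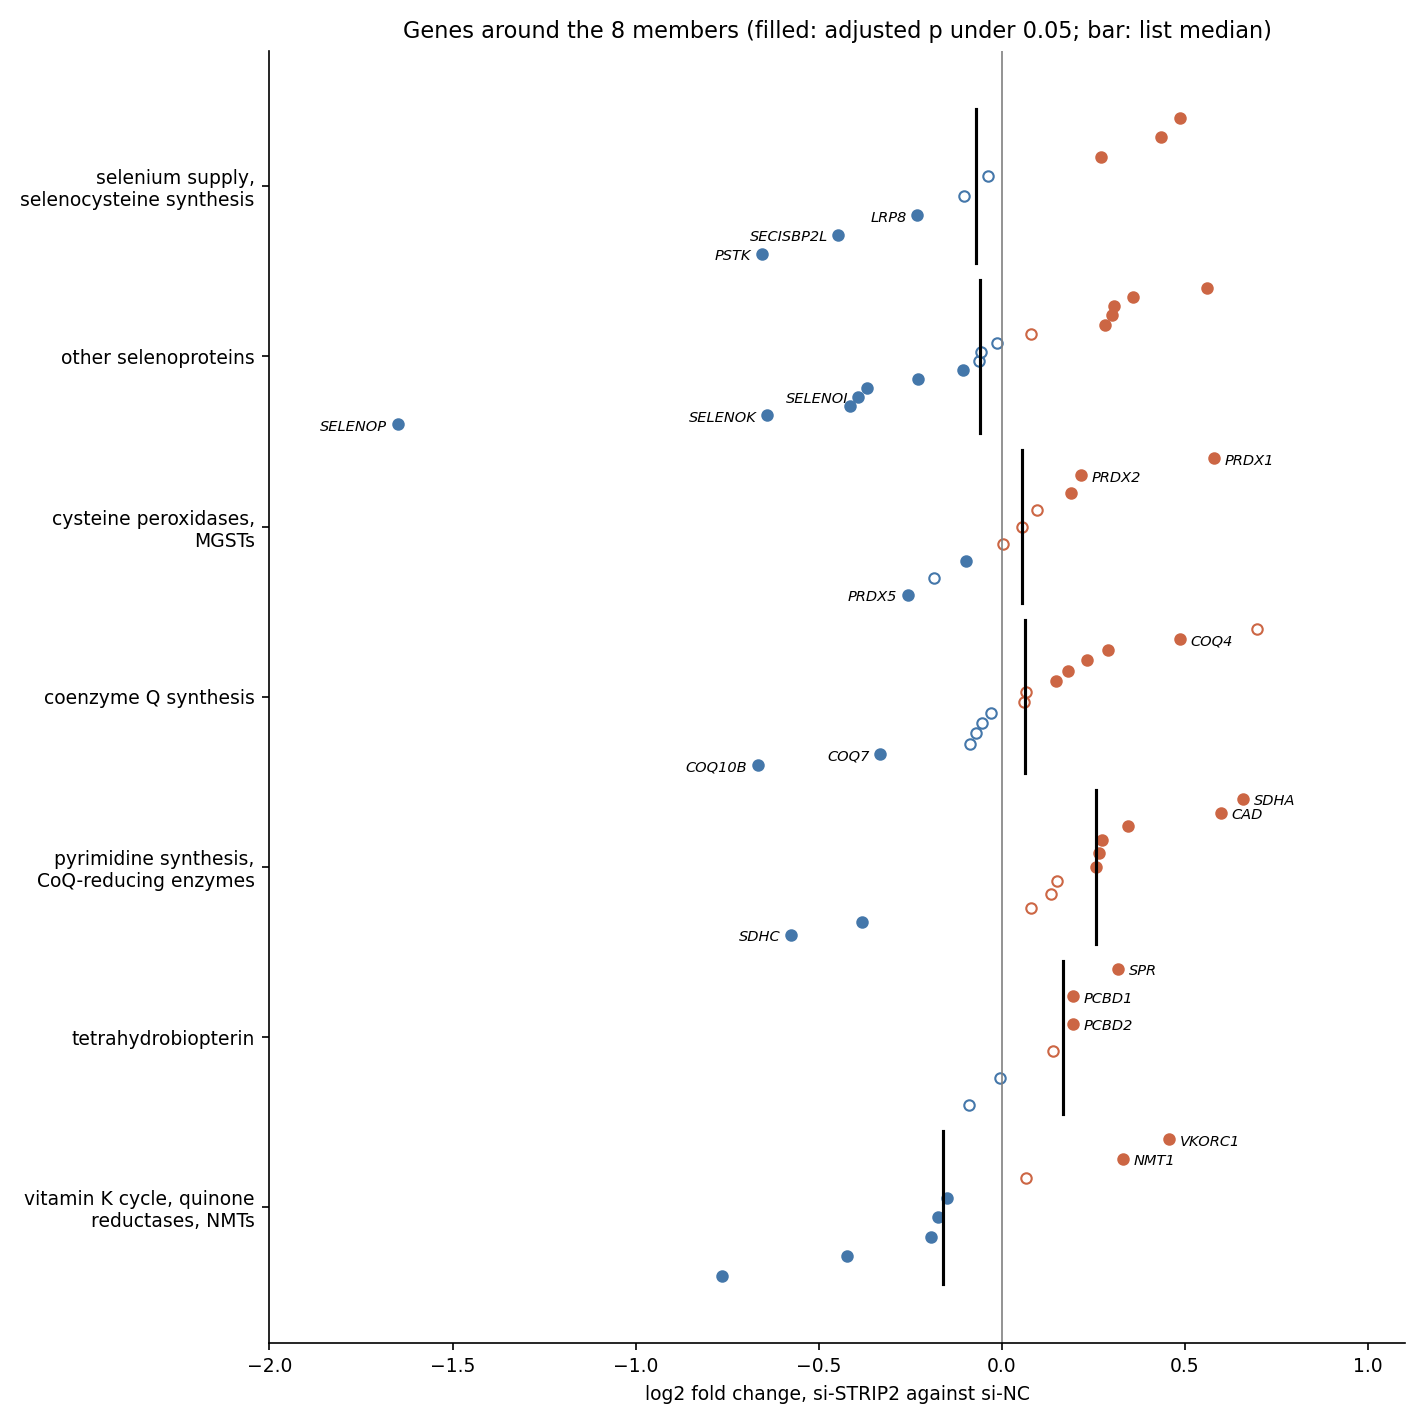
Log2 fold change (si-STRIP2 against si-NC) of each tested gene in the 7 lists, 1 point a gene, filled where the edgeR adjusted p was under 0.05 with the names of the genes described in the text. The upright bar is the median of the list, from -0.16 for the vitamin K list to 0.26 for the list with pyrimidine synthesis. MGSTs are microsomal glutathione transferases and NMTs are N-myristoyltransferases.

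Of 9 tested cysteine peroxidases and microsomal glutathione transferases, 3 rose and 2 fell, with a median of 0.055. PRDX1, a cytosolic peroxiredoxin, rose from 307 ± 22.3 to 460 ± 3.03 FPKM (log2 fold change 0.58, SE 0.046, edgeR adjusted p = 8.64e-13), a rise beside that of PRDX6. PRDX2 rose by 0.22 and PRDX5 fell by 0.26 on the log2 scale (edgeR adjusted p = 8.28e-05 and 2.55e-06). HOOK2, which overlaps PRDX2 on the same strand, held 43.8% as many counts. The number that fell was 1 without si-NC replicate 1 or 2 and without si-STRIP2 replicate 1 or 2. It was also 1 with the replicate number as a block, with library totals as the only scaling, with no filter on low counts and with limma on log2(FPKM + 1) or log2(FPKM + 0.1).

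Coenzyme Q is the substrate of AIFM2 and DHODH. Of 14 genes of its synthesis and transport, 5 rose and 2 fell, with a median of 0.063, and 3 rose without si-NC replicate 3. COQ10B, which binds coenzyme Q in mitochondria, fell from 23.4 ± 1.45 to 14.8 ± 0.632 FPKM (log2 fold change -0.67, SE 0.053, edgeR adjusted p = 9.79e-13). COQ7 fell by 0.33 and COQ4 rose by 0.49 on the log2 scale (edgeR adjusted p = 3.48e-05 and 2.19e-06). In the list of pyrimidine synthesis and of mitochondrial enzymes that reduce coenzyme Q, 6 of 11 rose and 2 fell, with a median of 0.26. CAD, the enzyme that starts the pathway of DHODH, rose from 9.71 ± 0.426 to 14.7 ± 0.307 FPKM (log2 fold change 0.60, SE 0.043, edgeR adjusted p = 7.80e-14). Of the 4 succinate dehydrogenase subunits, SDHC fell by 0.58 on the log2 scale and SDHA rose by 0.66 (edgeR adjusted p = 6.23e-13 and 1.51e-11). SDHB and SDHD, named after their values were seen, rose by 0.27 and 0.34 (edgeR adjusted p = 5.02e-06 and 2.00e-08). SDHA is uncertain, since its pseudogenes SDHAP1, SDHAP3 and SDHAP4 held 23.1%, 22.7% and 35.9% as many counts.

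Of 6 tested genes of tetrahydrobiopterin synthesis and recycling other than GCH1, 3 rose and 0 fell, with a median of 0.17. SPR, sepiapterin reductase, which completes the synthesis, rose by 0.32 on the log2 scale (edgeR adjusted p = 0.000651), PCBD1 by 0.19 and PCBD2 by 0.19 (edgeR adjusted p = 0.00140 and 0.0376). The PCBD2 values of the groups overlapped, at 2.68, 3.2 and 2.78 FPKM in si-NC and 3.58, 2.83 and 3.49 FPKM in si-STRIP2. The number of genes called higher in this list was 2 with DESeq2, with the filter at 1 FPKM, with limma on log2(FPKM + 0.1), without mitochondrial genes, without si-NC replicate 1 or 3 and without si-STRIP2 replicate 1 or 3. SGPL1, which overlaps PCBD1 on the other strand, held 291% as many counts and fell. At an unadjusted edgeR p under 0.05, 0 genes of this list were lower, and DESeq2 and limma called 0 lower.

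Of 8 genes of the vitamin K cycle, quinone reductases and N-myristoyltransferases, 2 rose and 5 fell, with a median of -0.16, and 3 fell without si-NC replicate 1 or 3 and without si-STRIP2 replicate 2 or 3. VKORC1 is given above. NMT1, an enzyme that attaches the myristate by which FSP1 is held at membranes, rose from 11.9 ± 0.703 to 15.0 ± 0.407 FPKM (log2 fold change 0.33, SE 0.045, edgeR adjusted p = 1.02e-07). PLCD3 and DCAKD, which overlap it on the other strand, held 40.1% and 13.8% as many counts. PLCD3 was not called (edgeR adjusted p = 0.261), while DCAKD rose by 0.62 on the log2 scale (edgeR adjusted p = 5.10e-07).

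The genes whose profile over the 6 libraries was most like that of GPX4, among 6656 genes with a mean of at least 5 FPKM, were FASTKD3, POLB and CSTF1, with a Pearson r of log2 CPM of 0.989, 0.988 and 0.980. Those most like AIFM2 were NRF1, RBBP5 and ZNF385A, at 0.990, 0.987 and 0.987. The 6 libraries share the difference between the groups, so these values describe likeness only. FASTKD3, POLB and CSTF1 were higher in si-STRIP2, by 0.26, 0.26 and 0.12 on the log2 scale, and the 3 genes like AIFM2 were lower, at -0.23, -0.11 and -0.21. These directions followed from choosing the genes by their r over the same libraries.

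**Figure D5:**
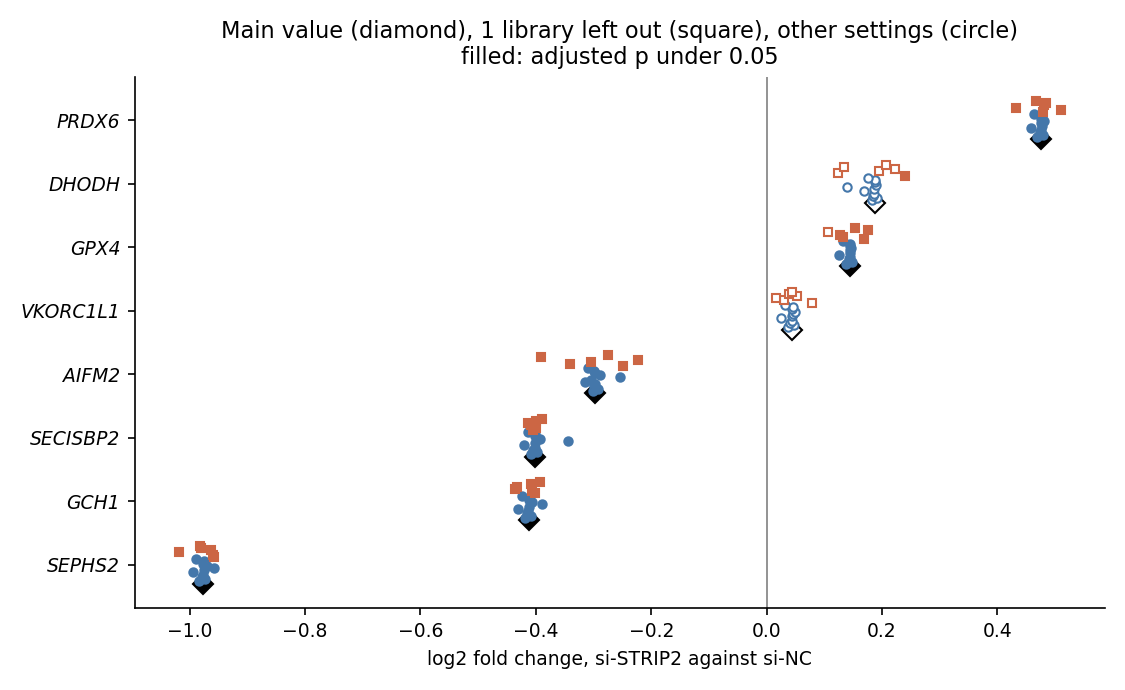
Log2 fold change of each gene (si-STRIP2 against si-NC) in the main analysis (diamond), with 1 library left out (squares) and under the other settings (circles), filled where the adjusted p was under 0.05. The 4 genes that fell stay on the left of 0 and filled throughout, while GPX4 has an open square and DHODH a filled square.

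The sizes held under the other analyses to different degrees. SEPHS2 ranged from -1.02 to -0.96 and PRDX6 from 0.43 to 0.51 on the log2 scale over 17 alternatives, each with an adjusted p under 0.05. AIFM2 ranged more widely, from -0.39 without si-STRIP2 replicate 2 to -0.22 without si-STRIP2 replicate 1.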

How the data were processed

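RNA of 6 HCT116 libraries (3 si-NC, 3 si-STRIP2) was measured by poly(A) RNA-seq. Per the submitters' processing notes, bcl2fastq 2.20.0.422, FastQC 0.10.1, cutadapt 1.9.1, HISAT2 2.2.1, HTSeq 0.6.1 and the build GRCh38.p13 were used. The annotation release and the strand setting are not given in the sources used here. Per the file headers, the authors deposited a raw count and an FPKM value per gene and library, with an exonic size in bases. The deposited FPKM values matched count, size and library total within 0.0050.

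Genes were kept by filterByExpr (minimum count 10; 15687 genes, 99.8% of counts), scaled by TMM and tested with edgeR 4.0.16 (R 4.3.3), quasi-likelihood, group as the only term, 2-sided, Benjamini-Hochberg over all genes tested. A gene was called at an adjusted p under 0.05. The SE was derived from the fold change and its F statistic. The 95% intervals use the residual degrees of freedom plus the prior ones that the fit borrows across genes (median of the total 33.5). Alternatives included DESeq2 1.42.0 and limma 3.58.1. On simulated data with 15687 genes, edgeR recovered 52.0% of genes changed by 0.3 on the log2 scale and 88.0% of those changed by 1. In those data 7.06% of its calls were false. Whether these percentages hold for the calls in the real libraries was not tested.

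Total counts were 17184963 to 21721218, so counting error limits the genes with few counts. The 8 genes, the lists and the tests were chosen with earlier results of these data known. Named genes are the 8, STRIP2, in each list the 3 called genes of smallest adjusted p whose mean reached 1 FPKM in either group, genes that overlap the 8 or are their pseudogenes, and the 3 genes with the highest Pearson r with GPX4 and with AIFM2. Genes overlapping list genes or their pseudogenes, SEPHS1, SDHB, SDHD and the genes of the closing section are named beyond this rule, after their values were seen. Some genes of the lists are counted but not reported by name here. Promoter windows are RefSeq's (GRCh38.p14), and selenocysteine codons are from GENCODE 29 on GRCh38.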

Additional observations from a re-analysis of the deposited data

How the results depend on the processing

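Over 17 alternatives a gene (10 planned settings, 6 with 1 library left out, and 1 added after the data were seen, without mitochondrial genes), SEPHS2, SECISBP2, GCH1, AIFM2, PRDX6 and STRIP2 kept their direction and an adjusted p under 0.05, and VKORC1L1 did not pass in any. With 1 library left out, GPX4 ranged from 0.11 to 0.18 and lost its call without si-STRIP2 replicate 1. In the same fits DHODH ranged from 0.12 to 0.24 and passed without si-NC replicate 1. The number called of the 8 ranged from 5 without si-STRIP2 replicate 1 to 7 without si-NC replicate 1. The number called higher ranged from 1 to 3. Over all genes tested, 7780 of 15948 were called without si-STRIP2 replicate 1 and 7690 of 16043 without si-NC replicate 1. The log2 difference of the GPX4 to AIFM2 ratio ranged from 0.33 to 0.56. The number of called genes over all tested was 6913 of 12329 under limma on log2(FPKM + 0.1) and 8684 of 15687 with the robust option. Same-numbered libraries did not deviate together (correlations of deviations -0.086, -0.013 and -0.072). These values cannot say whether same-numbered libraries were prepared together, which the labels do not give. With the replicate number as a block, GPX4 was at 0.14 (edgeR adjusted p = 0.00945), AIFM2 at -0.30, SEPHS2 at -0.98 and DHODH at 0.19 (edgeR adjusted p = 0.0761). In that fit 6 of the 8 genes and 8293 of all 15687 genes tested were called, and the block changed no call among the 8. In the lists, limma on log2(FPKM + 1) called 3 genes of the vitamin K list lower in place of 5, and it and DESeq2 called 3 selenoproteins higher in place of 5. Among the 8 genes DHODH had the fewest counts, 249 in its lowest library, and among the named list genes SELENOP and PSTK had fewer, 67 and 77.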

Other observations

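Among selenoproteins outside the rule for named genes, chosen after their values were seen, TXNRD1, the cytosolic thioredoxin reductase, fell from 144 ± 5.15 to 109 ± 5.09 FPKM (SD, n = 3, log2 fold change -0.41, SE 0.046, edgeR adjusted p = 1.91e-09). Its mean was the highest of the selenoproteins in each group. In si-STRIP2 its range, 102.97 to 112.79 FPKM, overlapped that of SELENOF, 105.92 to 107.62 FPKM. SELENOH, a nuclear selenoprotein, rose from 11.2 ± 1.27 to 16.5 ± 1.62 FPKM (log2 fold change 0.56, edgeR adjusted p = 1.50e-07). SELENOW, a small thioredoxin-like selenoprotein, rose by 0.28 on the log2 scale (edgeR adjusted p = 5.24e-06). GPX1, the cytosolic glutathione peroxidase, was at 71.7 ± 2.60 FPKM in si-NC and 76.1 ± 5.24 FPKM in si-STRIP2 and was not called (log2 fold change 0.081, edgeR adjusted p = 0.156). EEFSEC, the elongation factor that brings the selenocysteine tRNA to the ribosome, rose from 4.24 ± 0.206 to 5.77 ± 0.454 FPKM (log2 fold change 0.43, edgeR adjusted p = 0.000263), in the direction opposite to SEPHS2, PSTK and SECISBP2. TRNAU1AP and SCLY of the same list also rose, by 0.27 and 0.49 on the log2 scale (edgeR adjusted p = 0.00374 and 0.0104). SCLY was low, at 0.30 FPKM in si-NC and 0.42 FPKM in si-STRIP2. In that list of 8 tested genes, 3 rose and 3 fell.

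NQO1, a quinone reductase, fell by 0.17 on the log2 scale (edgeR adjusted p = 0.000570), from 138 ± 6.55 to 123 ± 1.40 FPKM.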
